A study of Mus musculus with 38 samples.

Results

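Transcripts of 10 mouse antioxidant enzyme genes were followed through the series: the 6 peroxiredoxin genes Prdx1 to Prdx6, the thioredoxin gene Txn1 and its reductase Txnrd1, and the superoxide dismutase genes Sod1 and Sod2. They were taken by symbol from the 31053 gene symbols that all 4 count tables list, and all 10 passed the filter on low counts in every fit. The series holds RNA sequencing libraries of mouse T cells, 38 in all, each made from 2000 sorted cells. All groups carry the C57/B6 background in the labels, and all began as naive T cells that were driven in culture to Th17Inf cells, a form of the interleukin-17-producing helper T cells.

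One experiment stayed in culture, with cells that came from spleen and lymph nodes. Cells from IL-23R KO mice, which lack the interleukin-23 receptor, were treated with dexamethasone (KO Dex) or left without it (KO Ctrl). Cells from WT mice were treated (WT Dex) or left (WT Ctrl) in the same way, with 4 libraries in each of these 4 groups and 2 days of treatment. Dexamethasone is a synthetic glucocorticoid that acts through the glucocorticoid receptor (GR, gene Nr3c1). In the transfer experiments the cells carried the 2D2 T cell receptor, which recognises a myelin protein, and caused experimental autoimmune encephalomyelitis in WT recipients. Cells labelled GR cKO and GR WT were sorted from the central nervous system (CNS), with 4 libraries each. Cells labelled CHD1 cKO (4 libraries) and CHD1 WT (3 libraries) were sorted both from the CNS and from the draining lymph nodes (dLN); CHD1 is a chromatin remodeller. The labels do not name the Cre driver behind either cKO, nor whether the libraries of a group came from different mice or cultures, so each p value speaks only of the spread from library to library, which may be technical.

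Superoxide dismutases turn superoxide into hydrogen peroxide, Sod1 with copper and zinc in the cytosol and Sod2 with manganese in the mitochondrial matrix. Peroxiredoxins reduce hydrogen peroxide with a reactive cysteine. Prdx1 and Prdx2 are the typical 2-Cys enzymes of the cytosol, Prdx3 that of the mitochondria and Prdx4 that of the endoplasmic reticulum. Prdx5 is the atypical 2-Cys enzyme found in several compartments, and Prdx6 is the 1-Cys enzyme, which draws on glutathione. The cytosolic 2-Cys enzymes Prdx1 and Prdx2 are restored by thioredoxin, which Txnrd1 reduces in turn at the cost of NADPH. Txnip binds thioredoxin and inhibits it. Activated T cells depend on this system while they divide.

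Total counts ran from 3148634 per library in the CHD1 WT dLN group to 9159671 in the GR WT group. Levels are given as CPM, a gene's count as a share of its library on a common scale, after adjustment by the trimmed mean of M values (TMM), and fold changes as log2 values with their standard error (SE) from the edgeR quasi-likelihood test. A gene was called where its Benjamini-Hochberg adjusted p over all genes of the fit was under 0.05. The labels were checked on the targeted genes. The Nr3c1 level was 5.20 to 6.12 CPM in GR cKO libraries and 11.5 to 17.2 CPM in GR WT libraries, without overlap. Chd1 stood at 3.46 to 6.40 CPM in cKO and 5.06 to 6.11 CPM in WT libraries of the CNS, and at 2.58 to 5.44 CPM in cKO and 4.70 to 5.11 CPM in WT libraries of the dLN, so it does not check those labels. Il23r was still counted in KO cells, at 1.50 to 2.39 CPM with Dex and 2.14 to 5.28 CPM without, against 5.89 to 15.9 CPM and 5.79 to 8.03 CPM in WT cells. Tsc22d3, a textbook glucocorticoid target, stood at 201 to 223 CPM in KO Dex libraries and 53.6 to 89.5 CPM in WT Dex libraries, against 14.5 to 32.9 CPM in both Ctrl groups.

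In the mm10 build with GENCODE M21, Prdx1 spans chr4:116685544-116700822 (plus strand), Prdx5 chr19:6906697-6910106 (minus), Prdx6 chr1:161240112-161251219 (minus), Txn1 chr4:57943373-57956411 (minus), Sod1 chr16:90220754-90226329 (plus) and Sod2 chr17:13006846-13040063 (plus). Prdx2 spans chr8:84969587-84974834 (plus), Prdx3 chr19:60864051-60874556 (minus), Prdx4 chrX:155323918-155340754 (minus) and Txnrd1 chr10:82833951-82897712 (plus). To show the promoters of genes that moved together in culture, RefSeq promoter windows (GRCm38.p6, 250 bases before to 50 after a start) were matched by symbol, and 9 of the 10 genes, all but Prdx6, had 11 windows between them. The lines that follow give the parts upstream of the annotated start for Prdx1 and Txn1, which fell together with Dex in KO cells, for Prdx3, which fell with them, and for Sod1, the dismutase with the highest counts. They lie at chr4:116685349-116685543 on the plus strand, chr4:57956412-57956661 on the minus strand, chr19:60874557-60874788 on the minus strand and chr16:90220512-90220753 on the plus strand. Capitals mark a match to the antioxidant response element searched as TGACNNNGC on either strand, the element that the regulator NRF2 (gene Nfe2l2) binds.
Prdx1: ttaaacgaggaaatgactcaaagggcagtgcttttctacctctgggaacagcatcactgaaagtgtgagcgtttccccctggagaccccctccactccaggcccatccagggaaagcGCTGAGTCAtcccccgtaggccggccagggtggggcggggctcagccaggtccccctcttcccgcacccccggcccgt
Txn1: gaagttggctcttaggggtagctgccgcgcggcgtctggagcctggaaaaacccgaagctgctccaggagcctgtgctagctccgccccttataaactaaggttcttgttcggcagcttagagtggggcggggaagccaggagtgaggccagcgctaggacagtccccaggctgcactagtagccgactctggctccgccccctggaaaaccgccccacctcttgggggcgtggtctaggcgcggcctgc
Prdx3: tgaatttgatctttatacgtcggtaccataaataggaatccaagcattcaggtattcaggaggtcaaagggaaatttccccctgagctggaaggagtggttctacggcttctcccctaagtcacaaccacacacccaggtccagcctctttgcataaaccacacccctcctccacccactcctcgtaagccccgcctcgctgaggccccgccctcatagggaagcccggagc
Sod1: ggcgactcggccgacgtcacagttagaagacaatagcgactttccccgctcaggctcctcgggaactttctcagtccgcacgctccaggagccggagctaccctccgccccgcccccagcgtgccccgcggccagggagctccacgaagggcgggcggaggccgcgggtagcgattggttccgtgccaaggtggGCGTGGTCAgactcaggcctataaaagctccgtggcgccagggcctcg
The element was matched in 3 of the 11 windows, those of Prdx1 and Sod1 and 1 of Txnrd1, and in 12.4% of all 32851 windows. With Dex in KO cells the 3 genes with a match went different ways, Prdx1 and Txnrd1 lower and Sod1 higher. The glucocorticoid response element, searched by its consensus, was matched in 0 of the 11 windows and in 0.475% of all windows. The E-box CACGTG was matched in the Prdx4 window and in 7.15% of all windows. A match is a run of letters, not a measured site, and the absence of one covers only these windows.

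Reads of some of these genes can be split with others. Prdx2 shares 173 exonic bases with Junb and 177 with Rnaseh2a, and Prdx5 shares 409 with Trmt112, in each case on the opposite strand, and the library protocol is not stated to keep the strand. Counts of Prdx2 and Prdx5 are therefore uncertain to that extent. Prdx1, Prdx2, Txn1 and Sod1 have near-identical copies elsewhere in the genome, at 95% identity or more over at least 200 bases, none of which the tables list.

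Per length of exon, Txn1 and Sod1 gave the highest levels of the 10 genes in 9 of the 10 groups, and Txnrd1 and Sod2 the lowest in all 10. In WT Ctrl cells Txn1 averaged 397 ± 31.2 CPM per kb (SD, n = 4), followed by Sod1 at 304 ± 8.36 and Prdx2 at 195 ± 2.31 CPM per kb. Next came Prdx1 (126 ± 16.8), Prdx5 (81.4 ± 6.04), Prdx3 (66.2 ± 4.12), Prdx4 (53.8 ± 6.70) and Prdx6 (33.2 ± 0.918 CPM per kb). Sod2 and Txnrd1 stood at 2.72 ± 0.110 and 2.28 ± 0.144 CPM per kb. No neighbours in this order overlapped in range. The order, and the shares and ratios per kb below, rest on the merged length of all annotated exons, 1.05 kb for Txn1 and 3.97 kb for Sod1. Before that division Sod1 stood above Txn1, at 1206 and 417 CPM on average in WT Ctrl cells. KO Dex cells had another order, with Sod1 first (315 ± 15.9 CPM per kb), then Prdx5 (210 ± 15.6), Txn1 (163 ± 9.53) and Prdx2 (113 ± 10.3). There Prdx6 (87.0 ± 4.77) and Prdx4 (84.1 ± 7.13) overlapped and stood above Prdx1 (51.9 ± 4.44 CPM per kb).

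In KO cells, Dex divided the family. The cytosolic thioredoxin and its reductase fell, and so did the peroxiredoxins Prdx1, Prdx2 and Prdx3, while Prdx4, Prdx5, Prdx6 and both dismutases rose. All 10 genes were called in KO Dex against KO Ctrl, 5 higher and 5 lower, where 54.7% of all tested genes were called, 27.3% higher and 27.4% lower. The summed level of the 10 genes was nearly the same, 3057 ± 109 CPM in KO Dex and 2996 ± 75.9 CPM in KO Ctrl libraries. The median log2 fold change of the 10 genes was -0.22, beside 0.01 over all tested genes. All 4 KO Dex libraries also stood apart in composition. In KO Dex, 30.5 to 37.5% of counts fell on repeats and ribosomal RNA, against 13.5 to 22.1% in KO Ctrl, and 0.359 to 0.447% fell on mitochondrial genes, against 1.56 to 1.91% in KO Ctrl. This cannot be told apart from the treatment. Nor can fewer cells of a type be told apart from less RNA per cell in such bulk libraries. The Th17 marker list summed to 9.34 to 14.4 CPM in KO Dex and 20.4 to 38.0 CPM in KO Ctrl libraries. The T cell marker list summed to 2341 to 2640 CPM in KO Dex and 3224 to 3401 CPM in KO Ctrl libraries, with all 8 markers counted. The macrophage list summed to 24.4 to 31.4 CPM in KO Dex and 10.4 to 15.2 CPM in KO Ctrl libraries, with Lyz2, C1qb and C1qc at 0 in every library of both groups.

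Txn1 had the lowest log2 fold change of the 10, within the SE of those of Prdx1 and Prdx3. It stood at 174, 161, 165 and 184 CPM in KO Dex libraries, against 398, 493, 361 and 457 CPM in KO Ctrl libraries. Every treated library lay under every untreated one. The log2 fold change was -1.32 ± 0.09 (SE, adjusted p = 6.48e-09). Txnrd1, which returns oxidised thioredoxin to its active form, was counted at a much lower level, 9.02, 9.91, 10.8 and 10.4 CPM in KO Dex libraries, against 14.7, 18.4, 13.1 and 23.3 CPM in KO Ctrl libraries. These groups did not overlap either, though the untreated libraries were widely spread. Its log2 fold change was -0.81 ± 0.18 (adjusted p = 0.00109).

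Among the typical 2-Cys peroxiredoxins, Prdx1 stood at 147, 161, 148 and 176 CPM in KO Dex libraries, against 356, 432, 312 and 401 CPM in KO Ctrl libraries. Its log2 fold change was -1.25 ± 0.11 (adjusted p = 8.86e-08). Prdx2 stood at 336, 304, 368 and 372 CPM in KO Dex libraries, against 564, 551, 521 and 542 CPM in KO Ctrl libraries. Both cytosolic enzymes thus lay below their untreated range in every treated library, with a smaller fall for Prdx2 (log2 fold change -0.66 ± 0.06, adjusted p = 2.69e-07). Mitochondrial Prdx3 stood at 42.1, 42.4, 45.6 and 41.2 CPM in KO Dex libraries, against 95.0, 108, 92.7 and 110 CPM in KO Ctrl libraries. The treated libraries were close together at less than the lowest untreated value (log2 fold change -1.24 ± 0.11, adjusted p = 6.58e-08). Prdx4, the enzyme of the endoplasmic reticulum, went the other way. It stood at 166, 199, 168 and 175 CPM in KO Dex libraries, against 135, 119, 118 and 118 CPM in KO Ctrl libraries, without overlap (log2 fold change 0.53 ± 0.09, adjusted p = 6.89e-05).

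Prdx5 and Prdx6 rose the most. Prdx5 stood at 423, 429, 445 and 497 CPM in KO Dex libraries, against 181, 129, 186 and 145 CPM in KO Ctrl libraries. That is a 2.81-fold higher level with a log2 fold change of 1.49 ± 0.11 (adjusted p = 9.27e-09). Trmt112, which overlaps Prdx5, stood at 144 CPM in KO Dex and 113 CPM in KO Ctrl cells on average, a log2 fold change of 0.35 ± 0.07 (adjusted p = 0.000611). Prdx6 stood at 442, 387, 423 and 420 CPM in KO Dex libraries, against 154, 142, 162 and 141 CPM in KO Ctrl libraries. Its treated and untreated ranges lay far apart, and its log2 fold change of 1.48 ± 0.06 had the smallest adjusted p of the 10 genes (2.71e-11). The genes that overlap Prdx2 went different ways, Junb with 611 CPM in KO Dex and 355 CPM in KO Ctrl cells (log2 fold change 0.78 ± 0.07), and Rnaseh2a with 41.0 and 79.6 CPM (-0.95 ± 0.18).

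**Figure D1:**
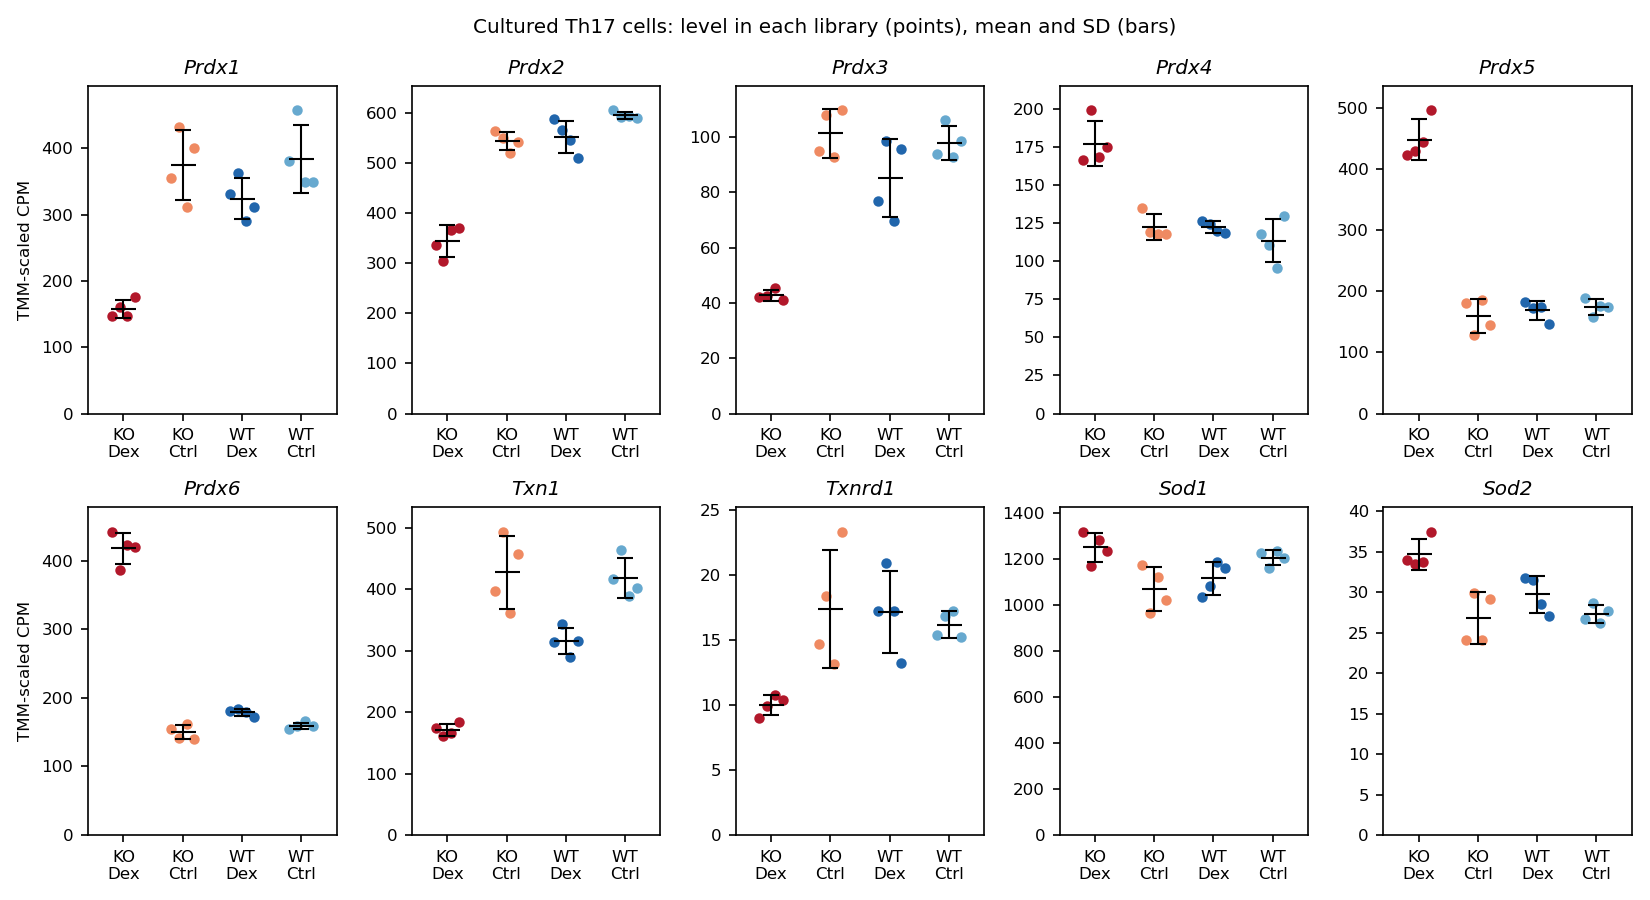
Level of each of the 10 genes (y axis, TMM-scaled CPM from 0, a scale of its own per panel) in the cultured cells by group (x axis: KO Dex, KO Ctrl, WT Dex, WT Ctrl), 1 point per library, with the mean and SD as bars. KO Dex libraries stand below all others for Prdx1, Prdx2, Prdx3, Txn1 and Txnrd1 and above all others for Prdx4, Prdx5, Prdx6 and Sod2.

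The dismutases changed least. Sod2 stood at 34.0, 33.5, 33.7 and 37.5 CPM in KO Dex libraries, against 24.0, 29.9, 24.1 and 29.2 CPM in KO Ctrl libraries, without overlap (log2 fold change 0.37 ± 0.10, adjusted p = 0.00398). Sod1 stood at 1319, 1172, 1282 and 1236 CPM in KO Dex libraries, against 1174, 967, 1121 and 1020 CPM in KO Ctrl libraries. These ranges overlapped at 1 library of each group, and the log2 fold change was 0.23 ± 0.07 (adjusted p = 0.00768). The call for Sod1 was lost without a filter on low counts (adjusted p = 0.0661, where the 15 alternatives ran from 0.000997 to 0.0661). Groups did not overlap for 9 of the 10 genes, all but Sod1, and for 48.0% of all tested genes.

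These changes altered the make-up of the peroxiredoxin transcripts. Per kb of exon, the typical 2-Cys genes Prdx1 to Prdx4 together held 48.4 ± 0.857% of the summed peroxiredoxin level in KO Dex and 80.1 ± 3.16% in KO Ctrl libraries (SD, n = 4 each). Prdx5 held 36.5 ± 1.09% in KO Dex and 14.1 ± 2.66% in KO Ctrl libraries. Prdx6 held 15.2 ± 1.03% in KO Dex and 5.84 ± 0.530% in KO Ctrl libraries. In WT cells the typical 2-Cys genes held 77.6 ± 1.26% with Dex and 79.4 ± 1.47% without.

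**Figure D2:**
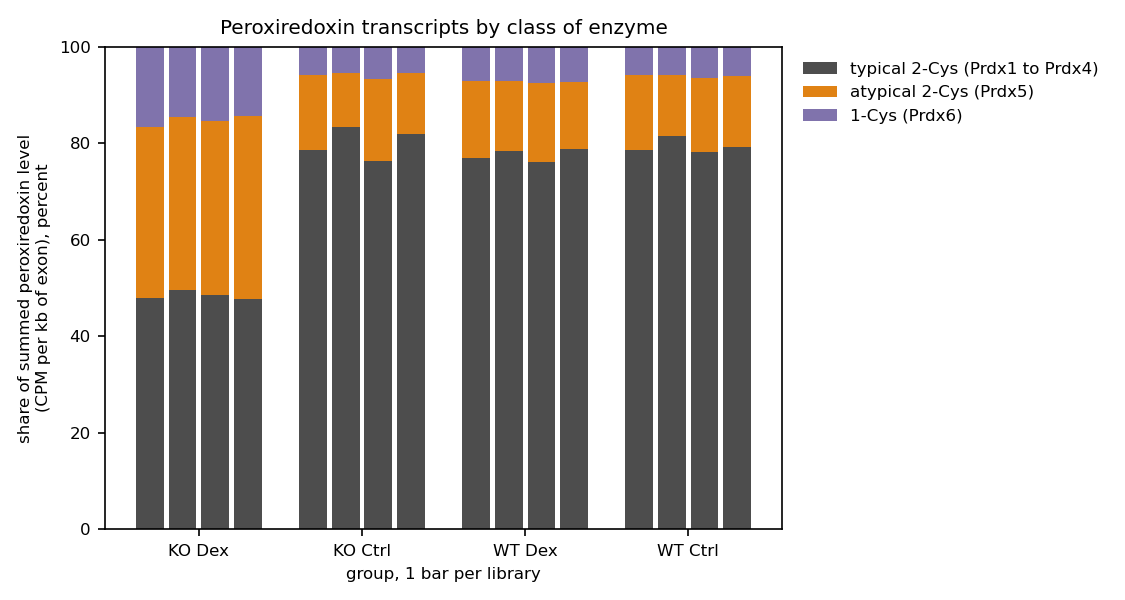
Share of the summed peroxiredoxin level (y axis, percent of CPM per kb of exon) held by the typical 2-Cys genes Prdx1 to Prdx4, by Prdx5 and by Prdx6, with 1 stacked bar per cultured library grouped along the x axis. The typical 2-Cys share lies between 47.6 and 49.5% in KO Dex libraries and between 76.1 and 83.4% in the other 12.

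In WT cells the same treatment left most of the 10 genes within the spread of the libraries. Only Txn1 was called, where 8.08% of all tested genes were, 4.20% lower. It stood at 314, 343, 290 and 316 CPM in WT Dex libraries, against 416, 464, 389 and 402 CPM in WT Ctrl libraries. Every treated library lay under every untreated one, and the log2 fold change was -0.40 ± 0.09 (adjusted p = 0.00937). Prdx6 stood at 180, 184, 180 and 171 CPM in WT Dex libraries, against 155, 159, 166 and 159 CPM in WT Ctrl libraries. Its ranges did not overlap, yet the log2 fold change of 0.16 ± 0.06 was not called (adjusted p = 0.116). Prdx2 did not overlap either, with a log2 fold change of -0.11 ± 0.06 (adjusted p = 0.346). Groups did not overlap for these 3 of the 10 genes and for 16.1% of all tested genes. The remaining log2 fold changes ran from -0.24 ± 0.11 for Prdx1 (adjusted p = 0.191) to 0.13 ± 0.09 for Sod2 (adjusted p = 0.478), and Prdx5 stood at -0.04 ± 0.11.

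The difference between the 2 responses was tested directly as the interaction of genotype and treatment, where a negative value is a lower response in KO cells. It was called for 9 of the 10 genes, all but Sod2, and for 32.2% of all tested genes. The response in KO cells was lower for Prdx3 (-1.05 ± 0.15, adjusted p = 5.53e-05), Prdx1 (-1.0 ± 0.15, adjusted p = 0.00012), Txn1 (-0.92 ± 0.13, adjusted p = 4.9e-05), Txnrd1 (-0.89 ± 0.24, adjusted p = 0.00967) and Prdx2 (-0.55 ± 0.09, adjusted p = 0.000225). It was higher for Prdx5 (1.53 ± 0.15, adjusted p = 2.13e-06), Prdx6 (1.32 ± 0.09, adjusted p = 3.38e-08), Prdx4 (0.42 ± 0.12, adjusted p = 0.0146) and Sod1 (0.34 ± 0.09, adjusted p = 0.0101). For Sod2 the difference was 0.24 ± 0.13 (adjusted p = 0.188). Without a filter on low counts Prdx4 (adjusted p = 0.0525) and Sod1 (adjusted p = 0.0542) were no longer called; over the 22 alternatives their adjusted p values ran from 0.00375 to 0.0525 and from 0.00171 to 0.0542.

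**Figure D3:**
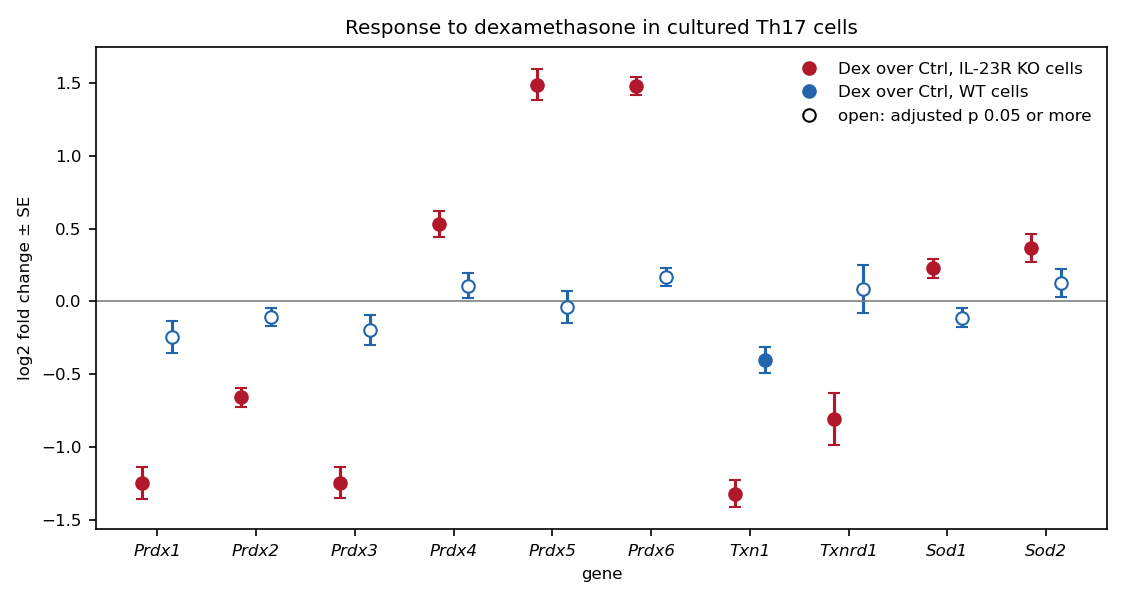
Response to Dex as log2 fold change ± SE (y axis) for each of the 10 genes (x axis) in KO cells and in WT cells, with open points where the adjusted p was 0.05 or more. KO values run from -1.32 to 1.49 and WT values from -0.40 to 0.16.

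Without Dex the genotypes gave close values. Of the 10 genes 0 were called by edgeR in KO Ctrl against WT Ctrl, where 0.684% of all tested genes were called, 0.222% higher and 0.462% lower. An unadjusted p under 0.05 was found for 1 of the 10, Sod1, and for 1051 of all 10813 tested genes. Sod1 averaged 1071 ± 94.0 CPM in KO Ctrl and 1206 ± 33.1 CPM in WT Ctrl cells (log2 fold change -0.17 ± 0.07, adjusted p = 0.376). DESeq2 also called 0 of the 10. The other 9 log2 fold changes lay between -0.13 and 0.12. Groups did not overlap for 1 of the 10, Prdx2, which was lower in KO Ctrl, and for 5.60% of all tested genes. With Dex, 9 of the 10 were called in KO Dex against WT Dex, all but Sod2, where 45.9% of all tested genes were called. Of the 10, 4 were higher and 5 lower, beside 22.2% and 23.7% of all tested genes. The call for Sod1 was close (log2 fold change 0.17 ± 0.07, adjusted p = 0.0477). Leaving out KO Dex library 5, 7 or 8 or WT Dex library 1, 2 or 4 ended it, as did a fit of only the 8 libraries and the absence of a filter, and its 14 alternatives ran from 0.0101 to 0.272. Sod2 stood at 34.7 ± 1.88 CPM in KO Dex and 29.7 ± 2.30 CPM in WT Dex cells (adjusted p = 0.067), and it was called at a mean of at least 10 CPM (adjusted p = 0.0211, where its 14 alternatives ran from 0.0211 to 0.312). Groups did not overlap for 9 of the 10, all but Sod1, and for 41.7% of all tested genes. KO Dex libraries also differed from WT Dex libraries in composition. Repeats and ribosomal RNA took 30.5 to 37.5% of counts in KO Dex and 21.0 to 25.4% in WT Dex libraries. Mitochondrial genes took 0.359 to 0.447% and 1.46 to 2.26%. The Th17 marker list summed to 9.34 to 14.4 CPM in KO Dex and 141 to 447 CPM in WT Dex libraries. The part of this in these differences and in the interaction was not tested.

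Partners of the 10 genes were counted from lists of the same pathways. Of 11 tested genes of the thioredoxin system, 3 rose and 3 fell in KO Dex against KO Ctrl, and 1 rose and 2 fell in WT Dex against WT Ctrl. Beside these and the list counts that follow stand 54.7% of all tested genes called in KO cells (27.3% higher, 27.4% lower) and 8.08% in WT cells (3.88% higher, 4.20% lower), so that the share of the thioredoxin system called in KO cells was near that of all genes. Txnip, the inhibitor of thioredoxin, had the largest change. It stood at 145, 145, 146 and 169 CPM in KO Dex libraries, against 20.8, 15.7, 28.7 and 19.9 CPM in KO Ctrl libraries (log2 fold change 2.85 ± 0.15, adjusted p = 2.67e-10). In WT cells it stood at 58.5, 47.2, 70.7 and 67.4 CPM with Dex, against 26.6, 24.9, 23.6 and 25.1 CPM without (1.28 ± 0.15, adjusted p = 3.99e-05). The gain was larger in KO cells by the interaction test (1.56 ± 0.21, adjusted p = 3.1e-05). Per kb of exon, the level of Txn1 was 3.23 to 3.58 times that of Txnip in KO Dex libraries and 37.4 to 93.6 times in KO Ctrl libraries. In WT cells it was 12.2 to 21.6 times with Dex and 46.4 to 55.4 times without. In KO cells the mitochondrial reductase Txnrd2 rose (log2 fold change 0.51 ± 0.15, adjusted p = 0.00678) and its substrate Txn2 fell (-0.26 ± 0.09, adjusted p = 0.0215).

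Of 13 tested genes of the NRF2 axis and NADPH supply, 5 rose and 7 fell with Dex in KO cells, where 54.7% of all tested genes were called, and 1 rose and 0 fell in WT cells, where 8.08% were. Nfe2l2, which encodes NRF2, rose in both, with a log2 fold change of 0.86 ± 0.13 in KO cells (adjusted p = 2.32e-05) and 0.67 ± 0.12 in WT cells (adjusted p = 0.00286). In KO cells Taldo1, a transaldolase of the pentose phosphate pathway, fell by 1.34 ± 0.11 and the mitochondrial isocitrate dehydrogenase Idh2 fell by 1.29 ± 0.13 on the log2 scale. Sqstm1, an autophagy receptor, rose by 1.05 ± 0.10 and Mafg, a partner of NRF2 on DNA, by 1.04 ± 0.16. Of 14 tested glutathione genes, 1 rose and 4 fell in KO cells, among them Gss (0.54 ± 0.10) and Glrx2 (-0.63 ± 0.14), and 1 rose and 1 fell in WT cells. Of 3 tested partners of the dismutases 1 fell in KO cells, Ccs, the copper chaperone of Sod1 (-0.46 ± 0.14, adjusted p = 0.01), and 0 changed in WT cells. Of 5 tested genes of the superoxide-producing oxidase, 1 rose and 2 fell in KO cells. The lists' median log2 fold changes in KO cells ran from -0.40 to 0.03, beside 0.01 over all tested genes.

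The genes whose patterns ran closest to each of the 10 across the 16 cultured libraries are given as a description. Txn1 ran most closely with Cct8, Atp5b and Hspd1 (Pearson r of log2 levels 0.996, 0.995 and 0.994), and over the 12 libraries without KO Dex these values were 0.984, 0.996 and 0.981. Prdx1 ran with Hars, Abcf2 and Uchl3 (0.992, 0.991 and 0.990; 0.936, 0.932 and 0.921 over the 12), and Prdx3 with Wdr43, Bcap29 and Tra2b (0.988, 0.984 and 0.983). Prdx5 ran with Pgam1, Hilpda and P4hb (0.989, 0.987 and 0.984; 0.755, 0.817 and 0.629 over the 12). Prdx6 ran with Pkm, Rassf1 and Me2 (0.993, 0.992 and 0.990), Prdx2 with Slc15a3 and Cysltr2 (0.984 and 0.981) and Prdx4 with Zfp446, Rhoq and Tmem50b (0.946, 0.939 and 0.938). Txnrd1 ran with Tmem14c, Ddx54 and Ybx3 (0.932, 0.929 and 0.919), Sod2 with Mgme1, Kdm2a and Idnk (0.920, 0.905 and 0.887) and Sod1 with Tceal9, Gm16350 and Ndufa6 (0.890, 0.847 and 0.845). The points share their libraries and their scaling. Without the 4 KO Dex libraries these r values ran from 0.629 for Prdx5 with P4hb to 0.996 for Txn1 with Atp5b, and that of Sod1 with Tceal9 was 0.897.

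In cells sorted from the CNS, the GR genotype left all 10 genes uncalled. Of the 10 genes 0 were called in GR cKO against GR WT by edgeR and by DESeq2, where 0% of all tested genes were called by edgeR. An unadjusted p under 0.05 was found for 2 of the 10, Sod2 and Prdx5, and for 1226 of all 11148 tested genes. The Sod2 level in GR cKO libraries was 32.4, 26.0, 20.2 and 22.4 CPM, against 15.3, 15.3, 18.1 and 19.0 CPM in GR WT libraries. Every cKO library lay above every WT library, the 1 gene of the 10 for which this held, beside 6.46% of all tested genes (log2 fold change 0.58 ± 0.16, adjusted p = 0.285). The Prdx5 level in GR cKO libraries was 356, 265, 181 and 216 CPM, against 144, 112, 207 and 164 CPM in GR WT libraries. The groups overlapped at cKO library 7 and WT library 3 (log2 fold change 0.70 ± 0.23, adjusted p = 0.328). The other 8 log2 fold changes lay between -0.06 for Txnrd1 and 0.12 for Prdx4.

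Markers of other cell types differed among these libraries, and their part in the values was not tested. The neutrophil list summed to 20.8, 7.28, 6.97 and 3.42 CPM in GR cKO libraries 5, 6, 7 and 9, against 0 to 0.835 CPM in GR WT libraries, with Mpo at 0 in both groups. The 4 B cell markers summed to 17.6 to 70.3 CPM in GR cKO and 5.11 to 11.1 CPM in GR WT libraries. Neither list overlapped between the groups, while the macrophage and microglia list did. The 12 macrophage and microglia markers summed to 11058, 5972, 9319 and 4735 CPM in GR cKO libraries 5, 6, 7 and 9, against 1956, 7888, 5882 and 2985 CPM in GR WT libraries 1 to 4. Library 5, the highest of all in the macrophage and neutrophil lists, was also the highest in Sod2 and Prdx5. In contrast, cKO library 7, at 9319 CPM in the macrophage list, had the lowest Sod2 and Prdx5 of the cKO libraries. WT library 2, with the highest macrophage sum of the WT libraries, was lowest in Prdx5 and stood at 15.3 CPM in Sod2. The Txnip level in GR cKO libraries was 59.2, 51.6, 71.0 and 54.7 CPM, against 94.2, 124, 101 and 85.2 CPM in GR WT libraries. Its groups did not overlap, but the log2 fold change of -0.78 ± 0.14 was not called (adjusted p = 0.157).

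**Figure D4:**
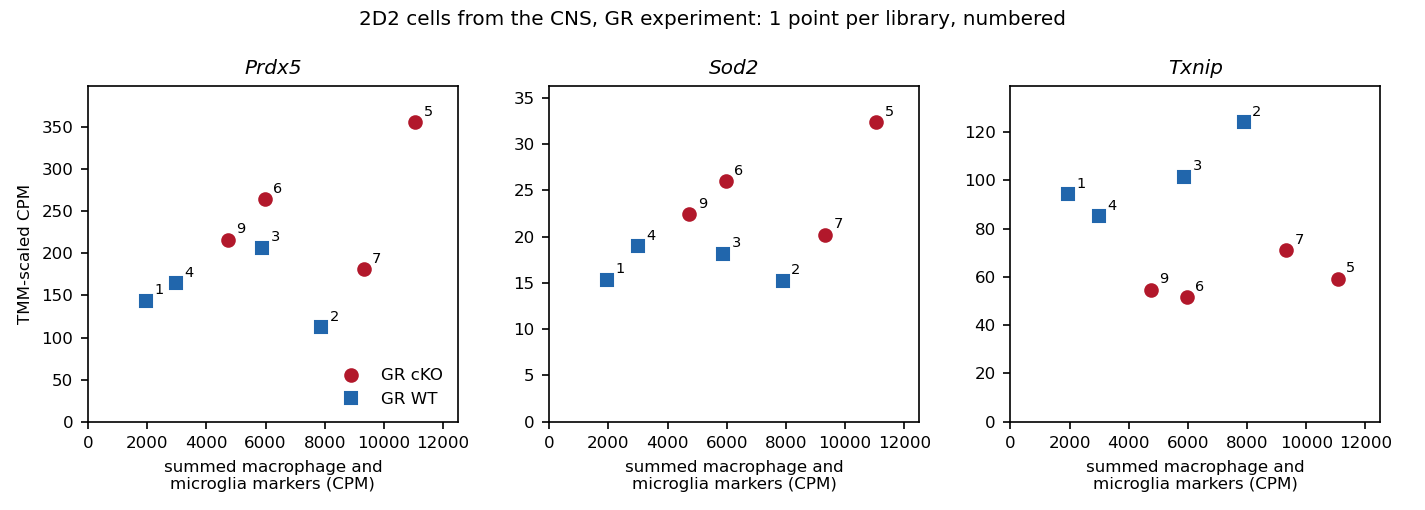
Level of Prdx5, Sod2 and Txnip (y axes, TMM-scaled CPM) against the summed level of 12 macrophage and microglia markers (x axes, TMM-scaled CPM) in the 4 GR cKO (circles) and 4 GR WT (squares) libraries from the CNS, numbered as labelled. For Sod2 the cKO libraries lie at 20.2 CPM or more and the WT libraries at 19.0 CPM or less.

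CHD1 genotype in the CNS likewise gave 0 of the 10 genes called by edgeR and by DESeq2, where 0.00896% of all tested genes were called by edgeR. Prdx1, Prdx4 and Prdx5 had an unadjusted p under 0.05, as had 1326 of all 11157 tested genes. Groups did not overlap for 4 of the 10, which were higher in cKO, and for 12.8% of all tested genes. Prdx1 stood at 473, 478, 510 and 495 CPM in cKO libraries, against 396, 449 and 381 CPM in WT libraries (log2 fold change 0.26 ± 0.12, adjusted p = 0.417). Prdx4 stood at 56.3, 62.5, 58.1 and 54.8 CPM in cKO libraries, against 40.0, 50.9 and 39.8 CPM in WT libraries (0.41 ± 0.14, adjusted p = 0.317). Prdx5 stood at 264, 256, 246 and 229 CPM in cKO libraries, against 177, 216 and 195 CPM in WT libraries (0.34 ± 0.12, adjusted p = 0.326). Sod2 was the fourth, with 0.25 ± 0.15 (adjusted p = 0.548). Cell type markers moved too. The dendritic cell list summed to 77.7 to 113 CPM in cKO and 49.3 to 74.8 CPM in WT libraries, without overlap and with all 4 markers counted. The macrophage list summed to 3247 to 7320 CPM in cKO and 3430 to 4678 CPM in WT libraries, which overlapped. Their part in the values was not tested.

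In the dLN the values leaned lower in CHD1 cKO cells, again with 0 of the 10 genes called by edgeR and 0.0714% of all tested genes called, 0.0306% higher and 0.0408% lower. An unadjusted p under 0.05 was found for 6 of the 10, and for 1971 of all 9803 tested genes. Txn1 stood at 83.4, 60.6, 76.1 and 134 CPM in cKO libraries, against 152, 183 and 133 CPM in WT libraries. The first 3 cKO libraries lay well under the WT range and library 4 inside it (log2 fold change -0.82 ± 0.24, adjusted p = 0.12). Prdx4 showed the same, at 22.2, 11.9, 19.3 and 39.7 CPM in cKO libraries, against 34.2, 45.9 and 37.3 CPM in WT libraries (-0.75 ± 0.32, adjusted p = 0.233). Sod1 stood at 491, 371, 465 and 617 CPM in cKO libraries, against 719, 742 and 644 CPM in WT libraries (-0.53 ± 0.16, adjusted p = 0.126). Prdx2 stood at 102, 65.3, 96.6 and 116 CPM in cKO libraries, against 136, 188 and 142 CPM in WT libraries (-0.71 ± 0.19, adjusted p = 0.109). For Sod1 and Prdx2 the groups did not overlap, which held for 16.8% of all tested genes. Prdx1 (-0.48 ± 0.14) and Txnrd1 (-0.48 ± 0.19) were the other 2 with an unadjusted p under 0.05.

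These calls turned on library 4 of the cKO dLN, and also on the tool and the filter. Without library 4, 5 genes were called lower, Txn1 (-1.09, adjusted p = 0.00532), Prdx4 (-1.13, adjusted p = 0.0155), Sod1 (-0.67, adjusted p = 0.0155), Prdx1 (-0.58, adjusted p = 0.0255) and Prdx2 (-0.82, adjusted p = 0.0294). They were among 990 called of 9696 tested genes, against 7 of 9803 with library 4. Over the 14 alternatives the adjusted p ran from 0.00532 to 0.376 for Txn1, from 0.0155 to 0.519 for Prdx4 and from 0.0155 to 0.362 for Sod1. With all libraries DESeq2 called 3 of the 10 (Prdx2, Txn1 and Sod1), and 319 of 11973 tested genes. Without a filter on low counts edgeR called Prdx2 (adjusted p = 0.0256) and Txn1 (adjusted p = 0.0234), and 511 of 22425 tested genes. The composition of the sorted cells differed too. The 2 CD8 T cell markers summed to 213, 500, 419 and 109 CPM in cKO libraries 1 to 4, against 19.8, 12.4 and 18.9 CPM in WT libraries, and the 8 T cell markers to 6152 to 13399 CPM in cKO and 17320 to 18577 CPM in WT libraries. The part of this in the lower values was not tested.

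Set against the dLN, cells from the CNS had more Prdx5 and Sod2 in both CHD1 genotypes. This contrast joins 2 tables, so that tissue and table cannot be told apart. The macrophage list summed to 2712 to 6114 CPM in cKO CNS and 16.3 to 87.9 CPM in cKO dLN libraries, and to 2856 to 3894 CPM in WT CNS and 21.4 to 79.4 CPM in WT dLN libraries. The dendritic cell list summed to 64.9 to 94.5 CPM in cKO CNS and 0.574 to 3.89 CPM in cKO dLN libraries, and to 40.9 to 62.3 CPM in WT CNS and 0.973 to 1.93 CPM in WT dLN libraries. The part of either list in the differences was not tested. Repeats and ribosomal RNA took 13.1 to 20.9% of counts in cKO CNS and 42.3 to 59.7% in cKO dLN libraries, and 18.3 to 32.6% in WT CNS and 41.8 to 54.4% in WT dLN libraries. With repeat, ribosomal RNA and mitochondrial features removed, the log2 fold change of Prdx5 was 1.86 in cKO and 1.35 in WT cells and that of Sod2 0.77 and 0.52, all 4 called. In cKO cells 8 of the 10 genes were called, all higher in the CNS, where 47.3% of all tested genes were called, 24.6% higher and 22.7% lower. In WT cells 2 were called, both higher, where 16.7% of all tested genes were, 11.8% higher and 4.93% lower.

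Prdx5 led in both. On the joined scale it stood at 221, 212, 206 and 191 CPM in cKO CNS libraries, against 56.5, 49.7, 54.3 and 72.1 CPM in cKO dLN libraries (log2 fold change 1.84 ± 0.13, adjusted p = 7.82e-08). It stood at 148, 180 and 162 CPM in WT CNS libraries, against 58.5, 64.8 and 73.0 CPM in WT dLN libraries (1.32 ± 0.14, adjusted p = 1.98e-05). No CNS library overlapped a dLN library. Trmt112, which overlaps it, had log2 fold changes of -0.07 ± 0.14 in cKO and 0.01 ± 0.16 in WT cells. Txn1 stood at 298, 296, 265 and 373 CPM in cKO CNS libraries, against 101, 73.3, 91.2 and 160 CPM in cKO dLN libraries (1.54 ± 0.20, adjusted p = 2.58e-05). In WT cells its ranges were also apart, at 243, 266 and 278 CPM in the CNS, against 181, 215 and 161 CPM in the dLN, but it was not called (0.50 ± 0.22, adjusted p = 0.147). Sod2 stood at 22.4, 26.7, 23.2 and 22.4 CPM in cKO CNS libraries, against 14.8, 13.8, 12.7 and 15.2 CPM in cKO dLN libraries (0.74 ± 0.13, adjusted p = 0.000259). In WT cells it stood at 18.0, 22.0 and 19.7 CPM in the CNS, against 13.3, 14.9 and 14.4 CPM in the dLN (0.49 ± 0.15, adjusted p = 0.033). That WT call was lost without CNS library 2 or 3 or any 1 of the 3 dLN libraries and under 4 other alternatives, with adjusted p from 0.0256 to 0.13 over all 12.

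The other genes called in cKO cells were Prdx1 (0.86 ± 0.12, adjusted p = 4.09e-05), Prdx2 (0.85 ± 0.17, adjusted p = 0.000936), Prdx4 (0.79 ± 0.25, adjusted p = 0.0168), Sod1 (0.47 ± 0.15, adjusted p = 0.0172) and Txnrd1 (0.48 ± 0.16, adjusted p = 0.0259). Calls for the last 3 rested on single libraries. Prdx4 was lost without cKO dLN library 3 (adjusted p = 0.0522). Sod1 was lost without cKO CNS library 4 or cKO dLN library 2, and Txnrd1 without cKO CNS library 4 or cKO dLN library 1 or 2 and at a mean of at least 10 CPM, with highest adjusted p values of 0.0631 and 0.0888 over their 14 alternatives. Junb, which overlaps Prdx2, stood at 534 CPM in cKO CNS and 56.7 CPM in cKO dLN cells on average. Prdx3 (0.17 ± 0.12) and Prdx6 (0.26 ± 0.11, adjusted p = 0.0669) were not called, and Prdx6 was under DESeq2, its size factors, removal of repeat features and without cKO CNS library 2 (adjusted p from 0.00908 to 0.25 over 14 alternatives). Between the tissues of cKO cells 5 of the 10 did not overlap, Prdx1, Prdx2, Prdx5, Txn1 and Sod2, and 40.0% of all tested genes. In WT cells 5 did not, Prdx2, Prdx5, Prdx6, Txn1 and Sod2, and 38.2% of all tested genes.

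**Figure D5:**
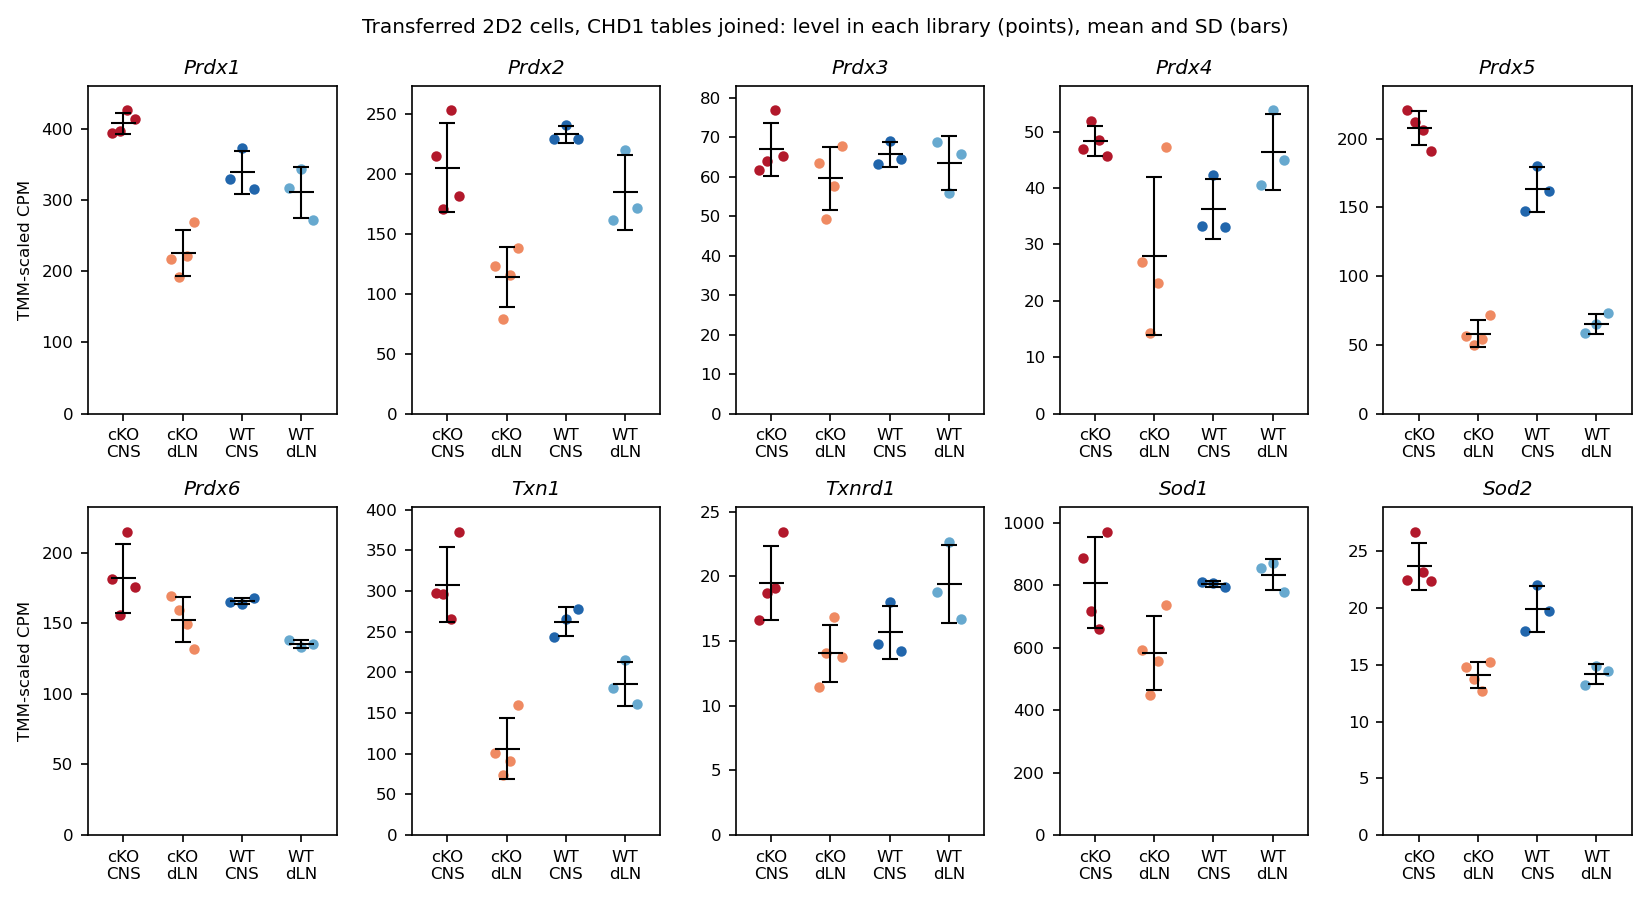
Level of each of the 10 genes (y axis, TMM-scaled CPM on the joined scale from 0, a scale of its own per panel) by group (x axis: cKO CNS, cKO dLN, WT CNS, WT dLN), 1 point per library, with the mean and SD as bars. Prdx5 lies between 148 and 221 CPM in all CNS libraries and between 49.7 and 73.0 CPM in all dLN libraries.

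Whether the CHD1 genotype changed the difference between tissues was tested by the interaction. By edgeR 0 of the 10 genes were called, where 0.112% of all tested genes were, 0.0431% higher and 0.0690% lower, and 6 had an unadjusted p under 0.05, as had 2190 of all 11589 tested genes. The estimates were above 0 for 9 of the 10, led by Prdx4 (1.15 ± 0.38, adjusted p = 0.131), Txn1 (1.04 ± 0.29, adjusted p = 0.104), Txnrd1 (0.78 ± 0.25, adjusted p = 0.122) and Prdx1 (0.73 ± 0.17, adjusted p = 0.0748). DESeq2 called 4, Prdx1, Prdx4, Prdx5 and Txn1, and 575 of 7635 tested genes. The same 4 were called by edgeR without cKO dLN library 4, Txn1 (adjusted p = 0.00598), Prdx4 (adjusted p = 0.00769), Prdx1 (adjusted p = 0.0116) and Prdx5 (adjusted p = 0.0424), among 648 of all tested genes, against 13 with it. Over the 20 alternatives the adjusted p ran from 0.00598 to 0.264 for Txn1 and from 0.00109 to 0.228 for Prdx1.

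For the pathway lists between tissues, the shares over all tested genes were 24.6% higher and 22.7% lower in cKO cells and 11.8% higher and 4.93% lower in WT cells. Of 6 tested genes of the superoxide-producing oxidase, 5 rose and 0 fell in cKO cells of the CNS against the dLN, led by Cybb (4.27 ± 0.37), and in WT cells 4 rose and 0 fell, led by Ncf1 (3.88 ± 0.35) and Cybb (3.63 ± 0.43). Cybb encodes the catalytic subunit of the phagocyte oxidase, and the macrophage markers given above moved the same way between the tissues. The part of other cell types in the values of all lists in this paragraph was not tested. Of 16 tested glutathione genes 8 rose and 0 fell in cKO cells, among them Glrx (1.60 ± 0.26) and Gpx1 (0.82 ± 0.14), and 1 rose and 1 fell in WT cells. Of 3 tested partners of the dismutases 2 rose in each genotype, the copper chaperone Atox1 (1.47 ± 0.11 in cKO and 0.97 ± 0.13 in WT cells) and the copper transporter Slc31a1 (2.00 ± 0.21 and 0.91 ± 0.23). Of 11 tested genes of the thioredoxin system 5 rose and 4 fell in cKO cells, and 2 rose and 1 fell in WT cells. Txnip was among those that fell in cKO cells, with 77.7 CPM in the CNS and 117 CPM in the dLN (-0.59 ± 0.18, adjusted p = 0.0127). The NRF2 axis and NADPH supply had 14 tested genes. In cKO cells 5 of them rose and 1 fell, and in WT cells 4 rose and 2 fell. Hmox1, an NRF2 target that degrades haem, had the largest change of this list. It rose by 4.00 ± 0.38 in cKO and by 2.63 ± 0.38 in WT cells. By edgeR 0 genes of these lists were called for CHD1 or GR genotype within a tissue.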

How the data were processed

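Libraries were made from 2000 sorted cells with a modified SMART-Seq2 protocol and 12 cycles of amplification, per the labels' protocols. The authors deposited expected counts, that is estimated counts of reads per gene symbol without normalization, from RSEM 1.3.3 and mm10 per the submitters' processing notes. All values are whole. Which aligner and which annotation were used, and how values became whole, is not given in the sources used here. Each of the 38 libraries had 1 column in 1 of 4 tables, and groups came from the labels. The 10 genes, the pathway and marker lists and the comparisons were chosen with earlier results of these data known.

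Tests used edgeR 4.0.16 under R 4.3.3. Low genes were dropped with filterByExpr (minimum count 10 and minimum total 15, its defaults), TMM set the scale, and contrasts were tested with the two-sided quasi-likelihood F test with Benjamini-Hochberg adjustment over all genes of the fit. The SE of a log2 fold change was its size divided by the square root of F. Genotype within the CNS or dLN was fitted in its own table, the cultured cells in 1 fit of 16 libraries, and tissue in 1 fit of the joined CHD1 tables. Per-length levels divide CPM by the merged length of all exons of a gene in GENCODE M21, not by the length of the transcripts present. All 10 genes were named in every comparison, and from each pathway list up to 4 called genes with the largest change. Txn2, Nfe2l2 in KO cells, Txnip in the CNS, Junb, Rnaseh2a and Trmt112 were named outside this rule after values were seen. Some genes that the naming rules give are not reported here. Whether replicate numbers shared by groups pair the libraries is not stated, and the main fits did not pair them. Same-numbered libraries had correlations of -0.08 to 0.11, which cannot decide it. A pairing, if real, enters only through the replicate block given below. For CHD1 genotype within a tissue, no WT library shares the number of cKO library 4. There the block takes library 4 out of the genotype difference.

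Alternatives were DESeq2 1.42.0, its size factors in edgeR, no filter, a mean of at least 10 CPM, removal of repeat, ribosomal and mitochondrial features, a replicate block, fitting both tissues jointly, fitting only the 8 libraries compared, and leaving out each replicate. The code was tested on simulated counts. Among 54 pairs of libraries within groups none was a duplicate by a chi-square test of counts (lowest statistic per degree of freedom 4.13). Promoter windows were searched for letters on both strands.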

Additional observations from a re-analysis of the deposited data

Results flagged for a closer look

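Among 80 checks of a gene in a group of 4, 4 had 1 library far from the other 3, where chance gives about 1 in 20. Sod2 stood at 32.2 CPM in CHD1 cKO CNS library 2, against 26.8 to 27.7 CPM in the other 3. Prdx2 stood at 185 CPM in GR WT library 4. Prdx4 stood at 135 CPM in KO Ctrl library 5, against 118 to 119 CPM in the other 3, and Sod2 at 37.5 CPM in KO Dex library 8, against 33.5 to 34.0 CPM.

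The response to Dex differed between KO and WT cells for 9 of the 10 genes by the interaction test of edgeR, with log2 differences (KO response minus WT response) of -1.05 for Prdx3, -1.0 for Prdx1, -0.92 for Txn1, -0.89 for Txnrd1 and -0.55 for Prdx2, and of 1.53 for Prdx5, 1.32 for Prdx6, 0.42 for Prdx4 and 0.34 for Sod1.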

How the results depend on the processing

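The number of the 10 genes called moved by over 1.5 times in 4 comparisons. Over all alternatives it also ran from 9 to 10 for Dex in KO cells, 8 to 10 for KO Dex against WT Dex, 7 to 9 for genotype by Dex and 6 to 9 between tissues in cKO cells. For CHD1 genotype in the dLN, 0 were called, against 3 with DESeq2, 2 with no filter and 3 with a replicate block, and 0 to 5 when each library was left out. The block there takes cKO library 4 out of the genotype difference, so it is not separate from leaving that library out. Txn1 gave -1.085 with the block and -1.0863 without library 4. For Dex in WT cells the replicate block gave 2 in place of 1, adding Prdx1 (adjusted p = 0.0475). Between tissues in WT cells, DESeq2, no filter, a mean of at least 10 CPM and the replicate block each gave 1 in place of 2, and leaving out libraries 1 to 2. For CHD1 genotype by tissue DESeq2 gave 4 in place of 0, and leaving out libraries 0 to 4. Leaving out libraries gave 6 to 9 between tissues in cKO cells, 8 to 9 for KO Dex against WT Dex, and the count as reported elsewhere. The replicate block changed no other count of the 10 by over 1.5 times. No paired analysis was possible for GR genotype or for KO against WT cells because those groups share no replicate numbers. Where a cause is not given here, the cause was not tested.

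Some values that were called in no setting changed sign. Prdx3 for CHD1 genotype in the CNS gave -0.0055 at a mean of at least 10 CPM, and Sod1 gave -0.024 there and -0.11 with the replicate block. The block again took cKO library 4 out of the genotype difference. Prdx6 for genotype by tissue gave 0.022 with DESeq2 and 0.0074 with its size factors. When libraries were left out, values ran from -0.049 to 0.060 for Prdx3 and -0.097 to 0.090 for Sod1 (CHD1 genotype, CNS), -0.072 to 0.029 for Sod2 (CHD1 genotype, dLN), -0.12 to 0.032 for Prdx6 (genotype by tissue) and -0.032 to 0.11 for Prdx3 (tissue, WT). For GR genotype they ran from -0.088 to 0.020 for Prdx2, -0.030 to 0.35 for Prdx4, -0.029 to 0.053 for Prdx6 and -0.15 to 0.060 for Txn1. For Dex in WT cells they ran from -0.085 to 0.020 for Prdx5 and -0.024 to 0.19 for Txnrd1. For KO Ctrl against WT Ctrl they ran from -0.11 to 0.064 for Prdx1, -0.041 to 0.11 for Txn1, -0.060 to 0.22 for Txnrd1 and -0.074 to 0.033 for Sod2.

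Over all tested genes, counts of calls went from 1 to 176 with DESeq2 for CHD1 genotype in the CNS and from 0 to 113 with DESeq2 for GR genotype. In the dLN they went from 7 to 319 with DESeq2, 511 with no filter and 613 with the block, which takes out cKO library 4. For genotype by tissue they went from 13 to 575 with DESeq2. They went from 74 to between 26 and 114 for KO Ctrl against WT Ctrl, from 874 to as few as 531 for Dex in WT cells, and, at a mean of at least 10 CPM, where fewer genes are tested, from 1938 to 1225 (WT) and from 5480 to 3418 (cKO) between tissues. For CHD1 genotype in the dLN the SE ran from 0.11 for Prdx6 to 0.32 for Prdx4, and changes of that size were not detectable.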
